A study of Solanum lycopersicum with 6 samples.

Results

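Chromosome 1 is the longest chromosome of the tomato genome (Solanum lycopersicum), and 9494 regions of open chromatin were called on it in inflorescences of the anantha mutant. They are all entries for this chromosome among the 80696 peaks of the deposited list, chosen by chromosome name alone, and 70681 further peaks lay on chromosomes 2 to 12. The plants carried the anantha-e1546 allele in the cultivar M82 and were grown with 16 h of light and 8 h of dark. All 6 samples were anantha-e1546 inflorescences, described as biological replicates of 1 g each, so the design has no wild-type or other control group. ANANTHA encodes an F-box protein needed for flower formation, and its loss yields inflorescences that keep making meristems. What limits the material is that it is meristem-rich tissue of 1 mutant and not a pure cell type.

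The assay was ATAC-seq, in which a transposase cuts DNA that is free of nucleosomes and the density of cuts is called as peaks. In plants such open regions lie mostly at promoters, enhancers and other regulatory DNA near genes. Tomato chromosomes have gene-rich euchromatin toward their ends and a long, repeat-rich, compact stretch around the centromere, and chromosome 1 is known for a long arm that carries much of its euchromatin. The list pools the 6 replicates. It therefore gives no value per replicate, no replicate error and no depth per sample, and the only spread available is that among chromosomes. Each peak has a start, an end, a score with a cap of 1000 and a −log10 q value, which is larger for a stronger peak and is the peak caller's own.

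Peaks filled both ends of chromosome 1 and thinned out over a long middle stretch. The first peak began at base 19047 and the last ended at 90797191, so a span of 90.8 Mb was described. The sparse interior ran from 6000001 to 67000000, set as the stretch of consecutive 1 Mb bins that together fall farthest short of the average bin of the 12 chromosomes. The interior held 1603 peaks in 61 Mb, the end arm 6509 peaks in 23.8 Mb and the start arm 1382 peaks in 6 Mb. These borders follow from peak counts and not from a mapped centromere, so the contrast in density is a description. The same holds for long gaps and isolated peaks, which a stretch set by its few peaks largely holds by definition. Per Mb there were 26.3 peaks in the interior (95% exact Poisson interval 25.01 to 27.6), 273.5 in the end arm (266.9 to 280.2) and 230.3 in the start arm (218.3 to 242.8). The intervals cover counting error only and treat peaks as independent. Counts per bin varied far more, at 26.3 ± 21.1 in the interior and 271.2 ± 57.9 in the end arm (SD over 61 and 24 bins). The intervals are therefore too narrow for variation along the sequence. Peaks covered 2.49% of the interior, 25.7% of the end arm and 22.8% of the start arm.

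**Figure D1:**
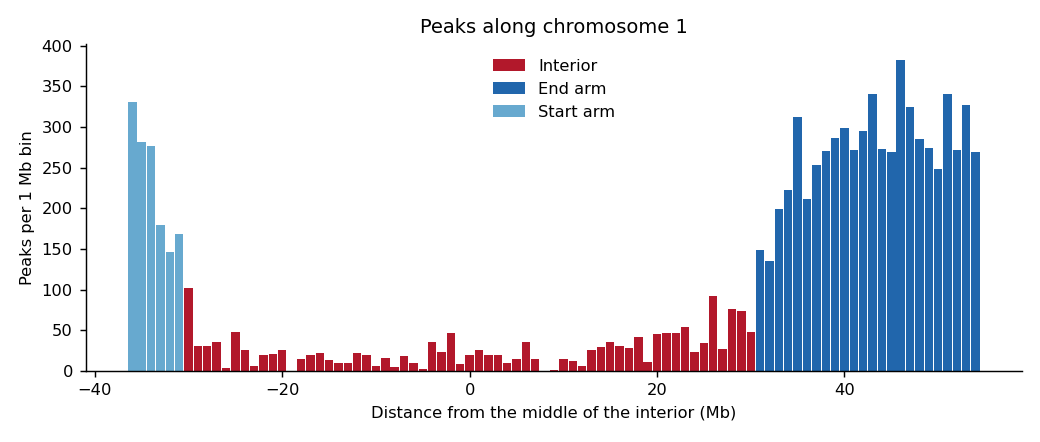
Peaks in each 1 Mb bin of chromosome 1 (y axis) against the distance of the bin from the middle of the interior (x axis, Mb), coloured by segment; the last bin is shorter than 1 Mb. The start arm drops within a few Mb, the interior stays at 102 peaks or fewer per bin, and the end arm reaches 383.

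Density changed over several Mb at both borders of the interior. From the first base inward, the 6 bins of the start arm held 331, 281, 276, 180, 146 and 168 peaks, and the next bins held 102, 30 and 31. On the other side, the last 3 bins of the interior had 76, 73 and 48 peaks, and the first 5 of the end arm had 149, 135, 199, 222 and 312. The bins just inside the borders thus held 102 and 48 peaks, and those just outside 168 and 149. That the inner bins held fewer is fixed by how the interior was set. Within the start arm, density fell from its first 2 Mb (306 per Mb) through the next 2 Mb (228) to the last 2 Mb before the interior (157).

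The end arm kept a high density over most of its length. Divided into 4 equal pieces from the interior outward, it had 204.6, 276.5, 313.3 and 299.7 peaks per Mb. Its fullest bin, from 82000001 to 83000000, held 383 peaks that covered 34.9% of the sequence. The bins beginning at 79000001, 87000001, 89000001 and 83000001 followed, with 341, 340, 327 and 324. The median bin of the end arm held 272.5 peaks, with quartiles of 251.75 and 302.25 over 24 bins.

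Counted inward from the end of its last peak, chromosome 1 had 349 peaks in the first Mb, against 302.3 ± 33.6 on the other chromosomes (SD, n = 11). In the third Mb it had 269, the lowest of the 12, against 340.6 ± 24.0. Farther in the order turned round. The ninth Mb held 359 peaks on chromosome 1 and 204.7 ± 89.3 on the others, and the twentieth held 321 against 62.8 ± 75.9. In both of these chromosome 1 had the highest count of the 12. From the first base, the fourth Mb held 180 peaks on chromosome 1 and 274.4 ± 60.8 on 10 others (SD, n = 10). Chromosome 2 was left out there because it has no dense arm at its start. The fifth Mb held 146 peaks against 210.1 ± 99.2 and the sixth 168 against 169.8 ± 91.1. Chromosome 1 had place 7 from the highest in both, with chromosomes 6, 7, 8 and 10 lower. Nearer the first base it stood lower in the order. It had place 11, the last, in Mb 2 with 281 peaks, and place 10 in Mb 4. Only chromosome 6 was lower in Mb 4, with 147. By Mb 4 its count had thus fallen below that of most others, whereas in Mb 5 and 6 several others were lower.

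**Figure D2:**
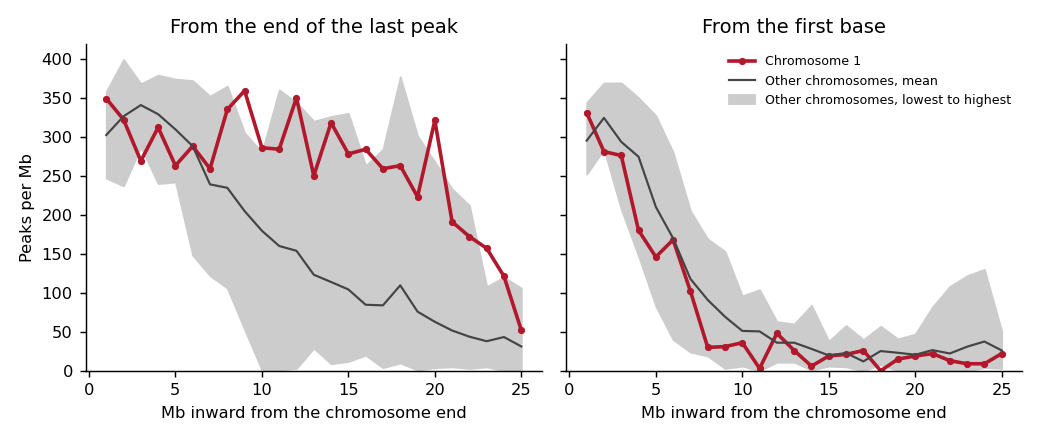
Peaks per Mb (y axis) by distance inward from the end of the last peak (left) and from the first base (right, x axes in Mb), for chromosome 1 (red), the mean of the other chromosomes (dark line, n = 11 left, n = 10 right without chromosome 2) and their lowest to highest value (grey). On the left chromosome 1 stays high well beyond the distance at which the mean of the others has dropped, with 321 peaks in the twentieth Mb. On the right it is below that mean in the fourth Mb, with 180, and near it in the sixth, with 168.

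Set beside the other chromosomes as whole units, chromosome 1 had a density near their mean, the longest interior and a large end arm. Chromosome 1 had 104.6 peaks per Mb, against 105.4 ± 23.9 on the other 11 chromosomes, and its peaks covered 9.91% of its span, against 10.5% ± 2.21 (SD, n = 11). It had place 5 of 12 for both. Its interior was the longest, at 61 Mb against 42 ± 8.82 Mb, with 50 Mb on each of chromosomes 10 and 12 the nearest below. As a share of the span the interior took 67.2% on chromosome 1 and 67.2% ± 8.83 on the others, so it was long in proportion to the chromosome. The end arm held 68.6% of the peaks of chromosome 1, against 54.3% ± 16.3 on the other 11 chromosomes, which gave it place 3 of 12. The end arm had 4.71 times as many peaks as the start arm, second to the 4.98 of chromosome 6 among the 11 chromosomes with both arms. The other 10 averaged 2.18 ± 1.28 (SD, n = 10).

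Each of 13 values of chromosome 1 was tested against the other chromosomes by an exact two-sided permutation test with the 12 chromosomes as units. With 1 chromosome on one side this test cannot give a p below 0.083 (0.091 for the contrast between arms, which 11 chromosomes have), so no difference could pass 0.05. The interior length had an exact permutation p of 0.17 and the share of peaks in the end arm one of 0.42, and all 13 values had a Benjamini-Hochberg adjusted p of 1.0. Places in the order are therefore given as descriptions, and nothing is called particular to chromosome 1. Many further values were ranked without being planned, and among so many some first and last places would arise anyway.

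The median peak of chromosome 1 was the narrowest of the 12 chromosomes. Widths on chromosome 1 had a median of 676 bp (quartiles 436 and 1135 bp), and the medians of the other chromosomes averaged 703.5 ± 10.3 bp (SD, n = 11). Chromosome 1 had the lowest of the 12 medians, followed by the 684 bp of chromosome 6 and the 689 bp of chromosome 11 (exact permutation p = 0.083, the smallest possible, adjusted p = 1.0). The difference was 27.5 bp. It was present in the end arm, with a median of 674 bp against 704.9 ± 14.2 bp, again the lowest of 12. In the interior the median was 685 bp against 699.1 ± 30.5 bp, within the spread. The start arm had 686.5 bp against 702.1 ± 24.7 bp (SD, n = 10), also within the spread. With peaks within 100 bp joined, the median of chromosome 1 was 811 bp against 850.5 ± 24.7 bp and was second lowest. The last place, though not the side of the mean, thus depended on how neighbouring peaks were split. With a q at or below 0.01 the median was 748 bp against 788.7 ± 16.4 bp, the lowest of 12.

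The share of very wide peaks on chromosome 1 was the second lowest of the 12. Peaks of 5 kb or more made up 0.643% of its peaks (61 peaks), against 0.878% ± 0.189 on the other 11 chromosomes. Chromosome 2 had the only lower share, at 0.641%. Chromosomes 6 and 11 were close above, at 0.657% and 0.680%, so the place rests on small differences. Peaks of 250 bp or less made up 4.83% (459 peaks), against 4.54% ± 0.34. The peaks of 5 kb or more were spread as 10 in the interior, 41 in the end arm and 10 in the start arm, or 0.624%, 0.630% and 0.724% of the peaks of each. In the outermost of the 4 pieces of the end arm there were 22, against 4 in the neighbouring piece. All 61 were at the score cap.

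**Figure D3:**
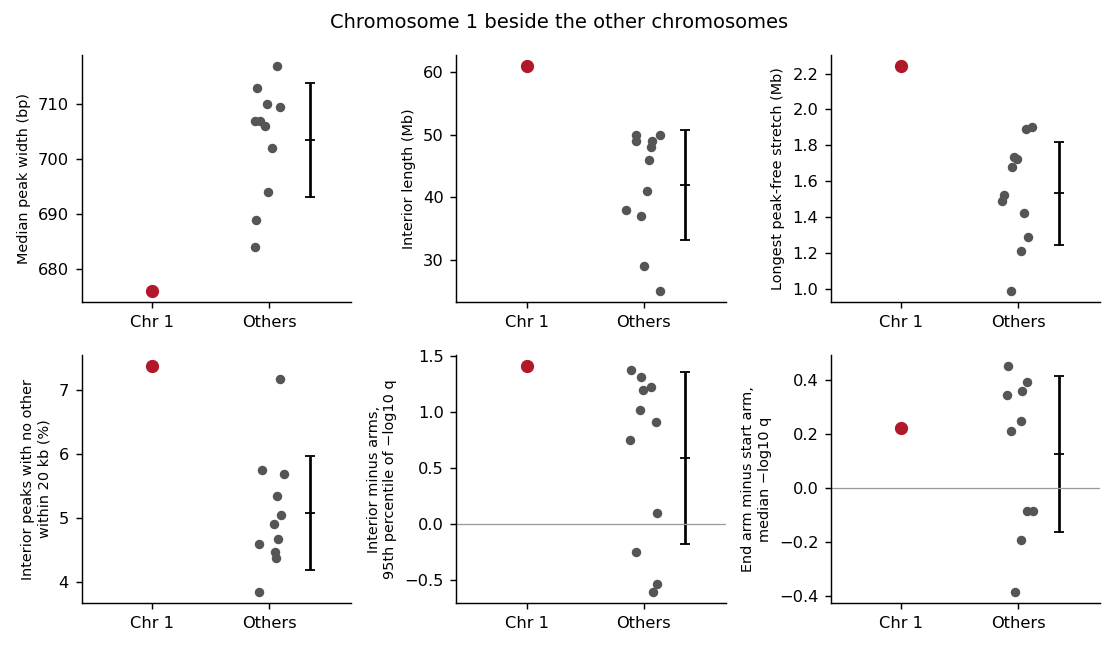
Chromosome 1 (red, left in each panel) beside the other chromosomes (grey points, with mean ± SD as a bar; n = 11, or 10 in the last panel) for 6 values named on the y axes with their units; axes do not start at 0. Chromosome 1 lies below all others in median width and above all others in interior length and in longest peak-free stretch. It also lies above them in isolated interior peaks and in the 95th percentile contrast, which were not planned and were picked from many ranked values. In the contrast between arms it lies within the others.

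The widest peak of chromosome 1 lay in the start arm from 4386131 to 4402108. It spanned 15978 bp and had a −log10 q of 17.5. Next came peaks of 14335 bp from 73472219 to 73486553, of 11510 bp from 88937412 to 88948921, of 11365 bp from 5023084 to 5034448 and of 11200 bp from 86508026 to 86519225. Their −log10 q was 16.4, 18.2, 16.1 and 6.13. The last of these was wide without being strong. It was rank 22830 in −log10 q among the peaks of the 12 chromosomes, whereas the other 4 stood between rank 603 and rank 1439.

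The second of these wide peaks was part of the only run on chromosome 1 in which peaks at most 500 bp apart continued for 25 kb or more. This run went from 73464444 to 73498954, a length of 34511 bp, of which 8 peaks covered 97.3%. Its members were 918, 1990, 4313, 14335, 1312, 6935, 3287 and 483 bp wide in order of position. The strongest was not the widest: the 1312 bp peak had a −log10 q of 17.6, the 14335 bp peak 16.4 and the 6935 bp peak 15.6, and the 483 bp peak at the far edge had 3.24. All 8 were at the score cap. Runs of at least 15 kb numbered 13, a limit set after the data were examined, with 1 in the interior, 9 in the end arm and 3 in the start arm. The one in the interior, from 64501923 to 64518905, joined 10 peaks, and its highest −log10 q was 11.7.

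Peaks of the interior were weaker than those of the arms at the median. The median −log10 q was 3.19 in the interior, 3.69 in the end arm and 3.47 in the start arm. Set against both arms together (3.65), the interior was lower by 0.45, and on the other 11 chromosomes the same contrast was -0.44 ± 0.20 (SD, n = 11; exact permutation p of the difference 0.92). Interior medians below those of the arms were thus found on chromosome 1 in the size seen elsewhere. That likeness depended on the borders. With each chromosome cut into 3 equal parts, the contrast of the middle part was -0.60 on chromosome 1 and -0.33 ± 0.20 on the others, place 11 of 12. The end arm was stronger than the start arm by 0.22, and this contrast was 0.13 ± 0.29 on 10 others (SD, n = 10; exact permutation p = 0.91), which fell on both sides of 0. The pieces of the end arm from the interior outward had medians of 3.53, 3.74, 3.72 and 3.77, and the 3 equal parts of the interior in order of position had 3.35, 2.95 and 3.27. The lowest of these belonged to the middle piece of the interior, which also had the fewest peaks per Mb (16.5).

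The score gave the same order. Peaks at the cap of 1000 made up 58.4% in the interior, 64.5% in the end arm and 61.1% in the start arm. For the chromosome as a whole 63.0% of peaks were at the cap, against 61.3% ± 1.33 on the other chromosomes, second of 12 after chromosome 3. Below the cap the median score was 685 in the interior, 698.5 in the end arm and 692 in the start arm, and the lowest score of the chromosome was 243. Score and width are tied in this list, because the product of score and width divided by 1000 was never below 199.96 for uncapped peaks of chromosome 1. Of the peaks of 250 bp or less, 91.0% in the interior, 85.6% in the end arm and 87.7% in the start arm were at the cap.

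A q at or below 0.01 was carried by 7947 peaks of chromosome 1. That is 83.7% of them, beside 82.4% of all peaks on the 12 chromosomes. The share on chromosome 1 was the highest of the 12 and lay above the 82.2% ± 0.69 of the others, but it is close to the background and is no result of its own. A q at or below 0.05 was carried by 99.4%, beside 99.2% of all. The largest q of any peak on chromosome 1 was 0.104.

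Although its median was lower, the interior held more of the strongest peaks than its share of all peaks. Of the 10 strongest peaks of chromosome 1, 5 were in the interior, 5 in the end arm and none in the start arm. Among the 100 strongest, 36 were in the interior, 56 in the end arm and 8 in the start arm, whereas the interior held 16.9% of all peaks. A −log10 q of 10 or more was reached by 12.6% of interior peaks (202), 10.98% of end arm peaks (715) and 9.77% of start arm peaks (135). The 95th percentile was 14.2 in the interior, 12.7 in the end arm and 12.8 in the start arm. The curves for the 3 segments therefore cross. Compared in steps of 0.5, the interior had the lowest share at or above each value from 1.5 to 6 and the highest from 8 to 21.5. At 22 and above there were peaks in the end arm alone.

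**Figure D4:**
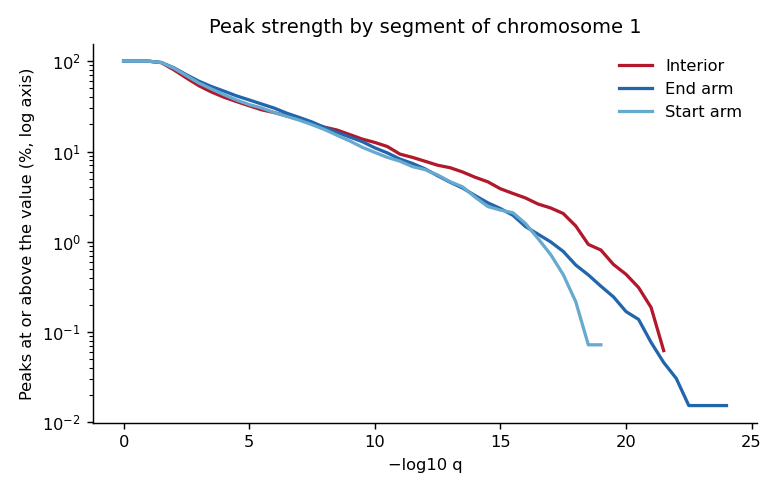
Share of peaks (y axis, %, log scale) with a −log10 q at or above the value on the x axis, for the 3 segments of chromosome 1. The interior curve (red) runs above both arms from 8 to 21.5, where it ends, while that of the end arm goes on to 24; at 10 the values are 12.6% in the interior, 10.98% in the end arm and 9.77% in the start arm.

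The 95th percentile of −log10 q was 1.41 higher in the interior than in the arms of chromosome 1, the greatest such difference of the 12 chromosomes. On the other 11 it averaged 0.59 ± 0.77 and was above 0 on 8 and below 0 on 3. Chromosomes 9 and 2, with 1.37 and 1.31, were close to chromosome 1. The number of interior peaks among the 100 strongest of a chromosome was 36 on chromosome 1 and 25.5 ± 8.98 on the others, where chromosome 10 had 44. The share with a −log10 q of 10 or more gave a less even picture. It was 1.83 percentage points higher in the interior than in the arms on chromosome 1, and on the others this contrast was 0.28 ± 1.79, above 0 on 6 and below 0 on 5. The arms of chromosome 1 had the lowest such share of the 12, at 10.8% against 11.8% ± 0.60. Its interior had place 5, at 12.6% against 12.1% ± 1.78. Leaving aside the level of its arms, in none of the 3 measures did chromosome 1 lie beyond the mean of the others by much more than 1 SD.

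The strongest peak of chromosome 1 lay in the end arm from 77753936 to 77759397, with a −log10 q of 24.3, rank 5 among the peaks of the 12 chromosomes. It was 5462 bp wide and sat in a bin of 272 peaks. It was followed by 76919333 to 76921860 (22.1) and 74129136 to 74133313 (21.6), so that the 3 strongest lay within 4 neighbouring Mb of the end arm. The fourth was the strongest of the interior, from 16836868 to 16840841, with 21.6 and 3974 bp. The fifth, from 67082602 to 67086681 with 21.4, was in the first bin of the end arm. The seventh, from 75353533 to 75356676 with 21.2, completed the 5 of the end arm.

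The other 4 interior peaks among these 10 were found in both dense and nearly empty surroundings. The peaks from 6352939 to 6355326 (21.2) and from 62869968 to 62875343 (21.2) were in the 2 fullest bins of the interior, with 102 and 92 peaks. The peak from 20547173 to 20549376 (21.0) was in a bin with 22. The peak from 10335843 to 10338961 (21.0) was in a bin with 3 peaks in all. Each of these 4 had another peak within 160 bp. In the start arm the strongest peak was that from 112363 to 115765, with 19.4, which was rank 321 of the 12 chromosomes.

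The share of strong peaks did not follow the number of peaks per bin in order. In the 56 bins with under 50 peaks, 12.3% of 1206 peaks had a −log10 q of 10 or more, and in the 21 bins with 250 or more it was 10.8% of 6233. In the bins between, it was 13.1% of 827 peaks at 50 to 149 per bin and 9.85% of 1228 at 150 to 249. The medians ran the other way, with 3.17 in the emptiest and 3.70 in the fullest bins. Bins of 50 to 149 and of 150 to 249 peaks had medians of 3.41 and 3.45. The median width was 666 bp in the emptiest and 678 bp in the fullest bins.

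Spacing separated the interior from the arms more by its long gaps than by its short ones. The median gap between the edges of neighbouring peaks was 1315 bp in the interior, 714 bp in the end arm and 612 bp in the start arm. The upper quartile was 16478 bp in the interior, 2892 bp in the end arm and 2641 bp in the start arm. Gaps of 100 bp or less made up 17.0% of interior gaps, 22.3% of end arm gaps and 23.5% of start arm gaps. Peaks with another peak within 2 kb, edge to edge, made up 78.2% of the interior, 88.9% of the end arm and 90.4% of the start arm. Interior peaks were thus mostly grouped even where few were called.

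Joining peaks at most 2 kb apart gave 729 groups in the interior, 2023 in the end arm and 405 in the start arm. The groups held 2.20, 3.22 and 3.41 peaks on average in these 3 segments, in that order, and had median lengths of 1519, 2369 and 2390 bp. A single peak made up 48.0% of the groups in the interior, 35.7% in the end arm and 32.6% in the start arm. The fullest group had 32 peaks and lay in the end arm, and the longest spanned 43062 bp in the start arm. In the interior no group exceeded 12 peaks or 20632 bp.

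Sequence without peaks was packaged in stretches of different length in the 3 segments. In the interior, gaps of 100 to 500 kb took 53.0% of the length and gaps over 500 kb another 24.2%, although they were only 158 and 18 of its 1604 gaps. In the end arm gaps of 1 to 10 kb took 36.6% and those of 10 to 100 kb 32.9% of the length, and no gap reached 100 kb. The longest there was 95056 bp, from 84170401 to 84265456. The start arm had 2 gaps over 100 kb, from 5406243 to 5546063 (139821 bp) and from 4720438 to 4821772 (101335 bp), both in its inner part.

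**Figure D5:**
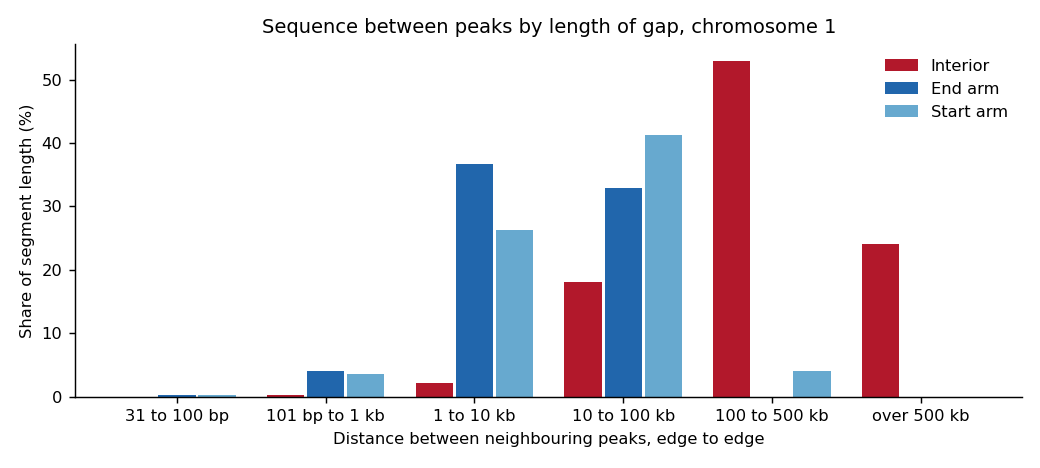
Share of the length of each segment of chromosome 1 (y axis, %) that lies in gaps between neighbouring peaks, by length class of the gap (x axis). Gaps of 100 to 500 kb take 53.0% of the interior and over 500 kb 24.2%, while the arms are filled mostly by gaps of 1 to 100 kb.

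Stretches of 500 kb or more without a peak numbered 18 and added up to 14.7 Mb or 16.2% of the chromosome. All were in the interior, which is largely given by how the interior was set. A stretch without a peak is one without a call, since depth is unknown. The longest measured 2.24 Mb, from 43752116 to 45995160, and took in the whole bin from 44000001 to 45000000. The second, of 1.42 Mb from 16840842 to 18261642, took in the other empty bin of the chromosome, from 17000001 to 18000000. The third measured 1.01 Mb, from 12978928 to 13985434. The longest was 1.58 times as long as the second.

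The next 7 measured 0.945, 0.894, 0.887, 0.848, 0.822, 0.638 and 0.614 Mb. They lay from 31154859 to 32099796, 35755001 to 36648626, 63192707 to 64079868, 10339969 to 11188107, 28028525 to 28850364, 34057028 to 34695141 and 26927586 to 27541136. Of these, the stretch from 63192707 lay in the best filled part of the interior. It was flanked by bins of 92 and 76 peaks, and the bin it mostly occupied had 27. The 8 remaining stretches were between 0.505 and 0.605 Mb long, the first of them in position starting at 7091511.

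The longest stretch of chromosome 1 was also the longest on the 12 chromosomes, at 2.24 Mb against 1.53 ± 0.289 Mb for the longest of each of the other 11 (SD, n = 11). The nearest were 1.90 Mb on chromosome 4 and 1.89 Mb on chromosome 9. With peaks of a q above 0.01 left out it kept its length, while chromosome 11 then had a stretch of 3.09 Mb, so the first place depended on weak peaks elsewhere. A maximum also tends to grow with the length searched, and chromosome 1 had the longest interior. Its second longest stretch, of 1.42 Mb, had place 4 of 12, against 1.15 ± 0.28 Mb on the others. The number of stretches of 500 kb or more was not high for so long an interior. Chromosome 1 had 2.95 of them per 10 Mb of interior, against 3.67 ± 0.49 on the other 11 chromosomes, and they filled 24.2% of its interior, against 28.5% ± 5.33. Chromosome 2 was the only chromosome lower in either. At 200 kb or more the order changed: chromosome 1 had 89 stretches, or 14.6 per 10 Mb of interior, the most of the 12, against 12.9 ± 1.24.

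The 36 peaks that border the 18 stretches ranged widely in strength. Their median −log10 q was 3.52, against 3.19 for the 1567 other peaks of the interior, and 69.4% were at the score cap, against 58.1%. Their median width was 685.5 bp, against 685 bp. The strongest of the interior, with 21.6, ended at the base before the 1.42 Mb stretch, and on the far side of that stretch stood a peak of 1.503. The peak at the left edge of the 2.24 Mb stretch had 6.48 and that at the right edge 2.93. The weakest, with 1.25, was at the right edge of the stretch from 34057028. The bordering peaks are few and were not tested. Those with another peak within 2 kb made up 47.2%, against 78.9% of the other interior peaks, which follows in part from having a long gap on one side.

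Isolated peaks lay mostly in the interior, which was itself set by its few peaks. Peaks with no other within 20 kb of either edge numbered 118 in the interior, 9 in the end arm and 4 in the start arm. They made up 7.36% of interior peaks on chromosome 1, against 5.08% ± 0.90 on the other 11 chromosomes, the highest share of 12, with 7.16% on chromosome 12 next. The isolated interior peaks had a median −log10 q of 3.44, and 66.1% were at the score cap. Interior peaks whose nearest neighbour was 2 to 20 kb away had 2.84 and 53.9%, and those with one within 100 bp had 3.53 and 65.2%. The isolated peaks were narrower, with a median of 530 bp against 649.5 bp at 2 to 20 kb and 795 bp within 100 bp. Score and width are tied in this list, and the shares at the cap were not compared at equal width. The difference of 0.60 in median −log10 q between isolated interior peaks and those at 2 to 20 kb was not general. On the other 11 chromosomes it was 0.15 ± 0.82, above 0 on 6 and below 0 on 5. The isolated interior peaks of chromosome 1 were not strong beside those of the others, at 3.44 against 3.67 ± 0.82, place 8 from the highest. Its interior peaks at 2 to 20 kb had the lowest median of the 12, at 2.84 against 3.52 ± 0.37.

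The interior was itself uneven. Its 61 bins had a median of 22 peaks with quartiles of 12 and 35, and ran up to 102. Its 3 equal parts held 477, 335 and 791 peaks in order of position, or 23.5, 16.5 and 38.9 per Mb. The 5 fullest bins began at 6000001 (102 peaks), 62000001 (92), 64000001 (76), 65000001 (73) and 59000001 (54), all within 8 Mb of a border. The bin beginning at 64000001 had the highest median −log10 q of these 5, at 4.60, and a median width of 914.5 bp. The bin beginning at 62000001 had 2.79 and 702 bp despite its greater number of peaks. The next fullest held 48 peaks (beginning at 11000001 and at 66000001) and 47 (at 34000001 and 57000001). The median bin of 22 was close to the 22.6 ± 3.55 of the other chromosomes (SD, n = 11). The highest bin of the interior, 102, was close to their 104.1 ± 15.5. The interior was set against the average bin of the 12 chromosomes, so the likeness in highest bins is largely given.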

How the data were processed

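ATAC-seq was done on 6 samples of anantha-e1546 inflorescences, which their titles place in 1 group. Per the labels' protocols, 100000 nuclei per reaction were treated with transposase for 30 min at 37 °C and sequenced as paired reads of 50 bases. Tools listed by the submitters' processing notes, without roles, are Genrich 0.6, Trimmomatic, Picard, BWA, bedtools and SAMtools. The authors deposited a single list of peaks for the 6 replicates; its name mentions a q of 0.5 and a gap of 30, and its chromosome names carry the build SL4.0. How reads were shifted and filtered is not given in the sources used here. The deposited score is a whole number capped at 1000, and the −log10 q deposited inside each peak's name was used unchanged.

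Coordinates are 1-based, peaks were placed by midpoint, and gaps are edge to edge. A span runs to the end of the last peak. The interior is the stretch of consecutive 1 Mb bins whose deficit of peaks, relative to the average bin of the 12 chromosomes, sums to the greatest total; what precedes and follows it is the start and the end arm. Each of 13 values was tested with an exact permutation test over chromosomes, adjusted by Benjamini-Hochberg. P-values measure the spread among chromosomes of 1 list, not among plants. Recovery of the interior and the rank of a shifted median −log10 q were checked on simulated lists. Those lists had sharp borders and randomly scattered peaks, unlike the real list, and gaps, runs, isolation and widths were not checked. Alternatives were q at or below 0.05 or 0.01, peaks within 100 bp merged, bins of 500 kb, 3 equal parts, a neighbour distance of 5 kb and stretch limits of 200 kb and 1 Mb.

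Regions were named by rule: the 10 strongest and 5 widest peaks, the 10 longest peak-free stretches, the 5 fullest bins per segment and runs over 25 kb. Other named positions were chosen after their values were seen. The members and the rules were chosen with earlier results of these data known. Genes and sequences of build SL4.0 are not given, since neither was analysed here. Software versions were matplotlib 3.10.9, scipy 1.17.1, pandas 2.3.3, numpy 2.4.6 and Python 3.11.15.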

Additional observations from a re-analysis of the deposited data

How the results depend on the processing

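Of 59 values recomputed, 49 kept the side of the other chromosomes' mean on which chromosome 1 lay, or moved little. No paired analysis was possible because the samples form 1 group in 1 list, and for the same reason replicates could not be left out. For 8 values the difference from the mean of the others changed sign, and the cause was not tested. All 8 had an exact permutation p of 0.5 or more. With a q at or below 0.05 the interior contrast in median −log10 q was -0.43. With a q at or below 0.01 there were 87.5 peaks per Mb, a median −log10 q of 4.27 and a median distance between peak centres of 2262 bp (1909 bp with all peaks). With peaks within 100 bp merged there were 81.98 peaks per Mb, a median distance of 2884 bp and an interior contrast in median width of -86 bp, against 9 bp with all peaks. With 3 equal parts the end part exceeded the start part by 0.25 in median −log10 q. The number of long peak-free stretches is set by its limit, at 3 for 1 Mb and 89 for 200 kb. The interior measured 60.5 Mb with bins of 500 kb and 60 Mb after merging. Depth per sample is unknown.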
